A study of Mus musculus with 4 samples.

Results

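The integrins and laminins on the array were read from every probe whose name is that of an integrin α or β chain or of a laminin α, β or γ chain. The name alone chose them, so no measured value entered the choice. They numbered 53 probes for 38 genes (18 integrin α chains, 9 integrin β chains and 11 laminin chains) out of 34813 genes or transcripts. Of the 38 genes, 29 were well above background on all 4 arrays (19 integrins and 10 laminins), 3 on 1 to 3 arrays and 6 on none.

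The arrays profiled mouse embryonic fibroblasts that were being reprogrammed towards induced pluripotent stem cells, to ask what activation of the kinase AKT does in that process. All cells were male OE-MEFs, fibroblasts from E13.5 embryos of an Oct4-EGFP transgenic strain whose EGFP is driven by Oct4 regulatory sequence, and all had received Oct4, Sox2 and Klf4 (OSK) by retrovirus. The OSK cells received nothing else, while the OSKA cells also received AKT-MER, a myristoylated AKT joined to a modified estrogen receptor that its ligand 4-hydroxytamoxifen (4OHT) switches on. From 3 days postinfection (dpi) the cells were given 4OHT or vehicle, and RNA was taken at 8 dpi. There was 1 array each for OSK with vehicle, OSK with 4OHT, OSKA with vehicle (AKT-nonactivated cells) and OSKA with 4OHT (AKT-activated cells). One label describes the last array as not activated, against its own title, and the title was used. The cultures hold infected and uninfected cells at different stages of reprogramming, and in such bulk samples fewer cells of a type and less RNA per cell cannot be told apart.

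Integrins are receptors made of an α and a β chain that hold cells to their matrix. They bind collagens, laminins or RGD-bearing proteins such as fibronectin, and pass force and signals to talin, focal adhesion kinase and the actin cytoskeleton. Laminins are cross-shaped trimers of an α, a β and a γ chain, and they form the sheet of the basement membrane on which epithelial cells sit. Fibroblasts are rich in collagen- and fibronectin-binding integrins, and a change from mesenchymal to epithelial adhesion is a known step of early reprogramming.

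With 1 array per group no test between groups was possible, and no p-value is given. A level is the log2 intensity of a probe relative to the 75th percentile of its array, and a difference is 1 array minus another on that log2 scale. The error given with a difference is that of the scanner software's error model, between 0.20 and 0.42 over the integrin and laminin genes, and it covers the measurement on the array and not the spread between cultures. Between 52.4% and 55.4% of the spots that were not controls were well above background, and no spot was saturated. All arrays were on 1 slide, and the group of an array cannot be told apart from its position. The brightest probe of Esr1, the estrogen receptor gene that marks the AKT-MER fusion, was not well above background in OSK cells and lay at 3.11 and 3.32 in OSKA cells without and with 4OHT, at least 219-fold and 233-fold higher. All 10 fibroblast markers were well above background on every array, while Zfp42 and Esrrb of the 8 pluripotency markers were not on any.

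Read by its brightest probe, no integrin or laminin gene differed 2-fold in any of the 4 comparisons, and none had a bound of 2-fold. Of the other probes, 1 of Itga1 and 1 of Itgal passed 2-fold in 1 comparison each, as given below. In the 4OHT effect in OSKA cells, which switches AKT on, 0 of 31 measured genes were at least 2-fold higher or lower, beside 2.01% higher and 0.902% lower among the 20299 genes measured. At 1.5-fold, 1 was higher (Lama1) and 2 were lower (Itga3 and Itga11), beside 5.06% and 4.63% of all genes. These shares lie near the background. In the 4OHT effect in OSK cells, which lack AKT-MER, 0 of 29 genes were 2-fold higher or lower (0.609% and 0.277% of all genes), and 1 was 1.5-fold higher (Itga1; 4.33% of all genes) and 1 lower (Itga3; 1.63%).

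OSKA and OSK cells were also compared at the same treatment. Without 4OHT, 0 of 30 genes were 2-fold higher or lower (1.09% and 0.932% of all genes). At 1.5-fold this comparison held more members than the others, with 4 higher (Itga1, Itga9, Itga11 and Itgb2; 5.66% of all genes) and 6 lower (among them Itga3, Itgb4, Itgb7, Lama5 and Lamb3; 3.99%). With 4OHT, 0 of 29 were 2-fold higher or lower (1.92% and 1.12%), 2 were 1.5-fold higher (Itgal and Lama1; 5.46%) and 3 were lower (Itga1, Itga3 and Lamb3; 5.1%). The 4OHT effects share no array with each other, nor do the AKT-MER effects, but each 4OHT effect shares an array with each AKT-MER effect.

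The median difference of the integrin and laminin genes was −0.06 for 4OHT in OSK cells, −0.04 for 4OHT in OSKA cells, 0.03 for AKT-MER without 4OHT and −0.19 for AKT-MER with 4OHT. In the same order the medians of all genes were −0.00, −0.03, −0.02 and −0.05. The laminins had medians of −0.09, 0.00, −0.22 and −0.18, and the integrins 0.13, −0.17, 0.12 and −0.19. Scaling on the spike-in probes moved the median of all genes to −0.32, −0.01, −0.49 and −0.17, under which the median of the integrin and laminin genes was below 0 in all comparisons, at −0.38 for 4OHT in OSK cells and −0.44 for AKT-MER without 4OHT.

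**Figure D1:**
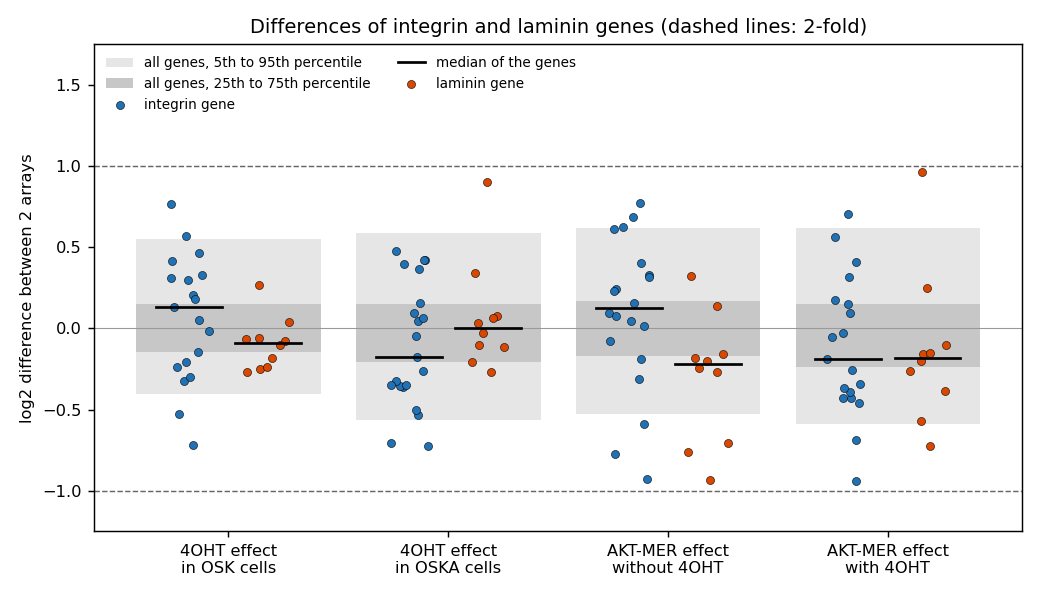
Log2 difference between 2 arrays (vertical axis) for each integrin gene (blue) and laminin gene (orange) in the 4 comparisons (horizontal axis), with black lines at their medians and grey bands for the spread of all genes. All points lie between the dashed lines at 2-fold, and Lama1 lies nearest to the upper line at 0.90 for 4OHT in OSKA cells and 0.96 for AKT-MER with 4OHT.

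Over the 4 arrays, the levels of a gene spanned between 0.16 and 1.66 on the log2 scale, with a median span of 0.62 beside 0.36 for all genes. The span exceeded 2-fold for 2 genes, Itga3 (1.66) and Lama1 (1.23). The array of AKT-activated cells was the lowest of the 4 for 11 of 29 genes (37.9%, beside 37.5% of all genes) and the highest for 8 (27.6%, beside 27.3%). The array of OSK cells with vehicle was the highest for 12 (41.4%, beside 31.6%). Of the 10 laminins it was the highest for 7, a count looked at after the values were seen. It was 7 to 9 of 10 under each alternative that gave it.

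**Figure D2:**
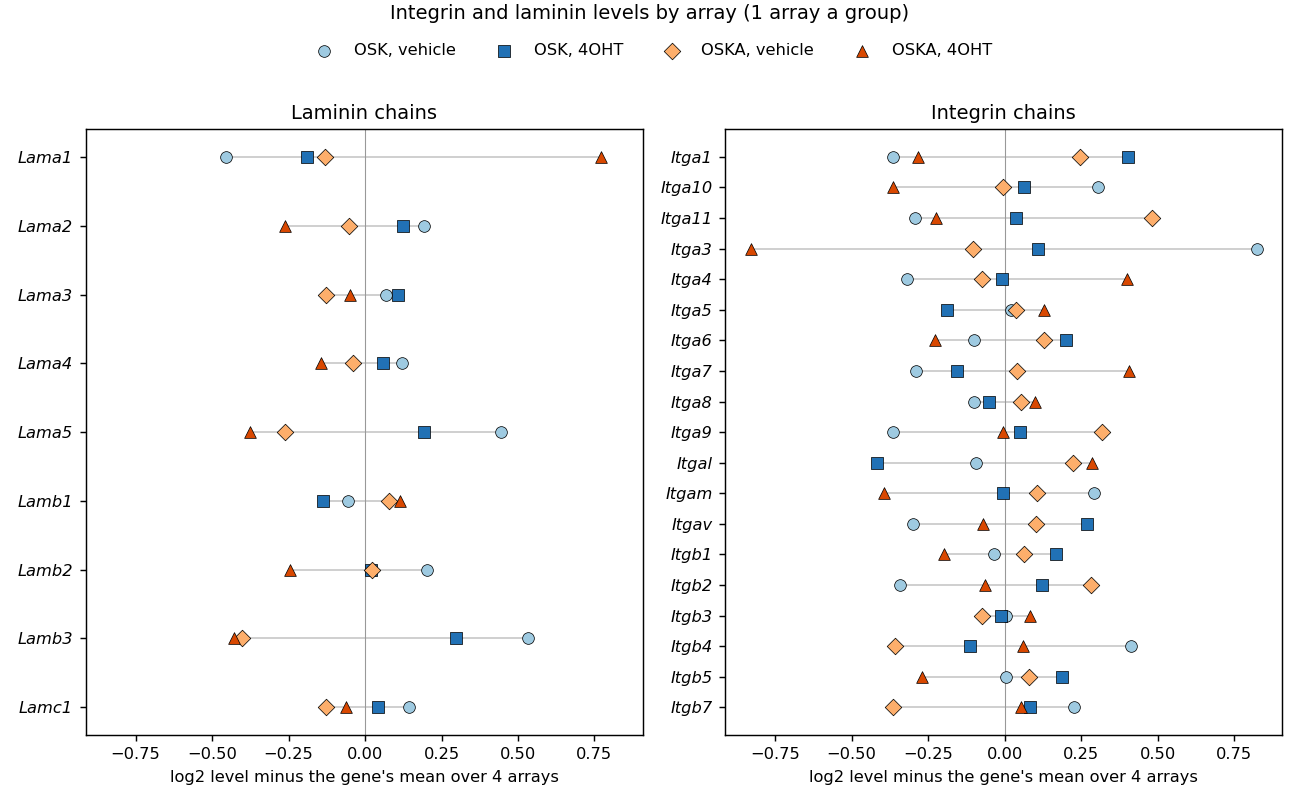
Level of 9 laminin genes (left) and 19 integrin genes (right) on the 4 arrays, as log2 level minus the mean of the gene (horizontal axis), with 1 point per array and a grey line for the span. Lama1 has its highest point and Itga3 its lowest point on the array of AKT-activated cells, and Lama5 and Lamb3 have their highest point on the array of OSK cells with vehicle.

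Lama1 encodes the α1 chain of laminin-111, the laminin of early embryonic basement membranes. Its probe lies at chr17:68171924-68171983 (NCBI37, mm9), on the transcript of the gene, and its first 30 bases are shown because it gave the highest positive difference among the members in both comparisons that hold the AKT-activated array.
Lama1 probe: atgttgaactaaagccacacggacaacaga
Lama1 lay at −1.69 in OSK cells with vehicle, −1.43 in OSK cells with 4OHT, −1.37 in AKT-nonactivated cells and −0.47 in AKT-activated cells. The AKT-activated array was thus the highest and the other 3 lay within 0.32 of each other. Lama1 was 1.87-fold higher in AKT-activated than in AKT-nonactivated cells (0.90, software error 0.21), and differed by 0.27 (error 0.21) with 4OHT in OSK cells. The difference in OSKA cells was 0.69 after normexp background correction with quantile normalization. The AKT-MER effect without 4OHT, 0.32, turned to −0.15 under spike-in scaling.

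The partner chains of laminin-111 spanned less. Lamb1, the β1 chain shared by several laminins, lay at 5.22, 5.14, 5.36 and 5.39 in OSK cells (vehicle, then 4OHT) and OSKA cells (vehicle, then 4OHT), the order used from here on for the 4 arrays. Lamc1, the γ1 chain of most laminins, lay at 4.78, 4.68, 4.51 and 4.57 in that order. With 4OHT in OSKA cells they differed by 0.03 and 0.06, each within the software error of 0.20. The spans of both over the 4 arrays were below 1.5-fold.

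Lamb3 encodes the β3 chain found in laminin-332, the anchor of epithelial cells, and Lama5 the α5 chain of laminin-511, on which pluripotent stem cells can be grown. These genes, with the receptor genes Itga3 and Itgb4, were chosen for description after their values were seen, except Itga3. Lamb3 lay at 0.01 and −0.23 in OSK cells without and with 4OHT and at −0.93 and −0.96 in OSKA cells. Lama5 lay at 3.24 and 2.99 in OSK cells and at 2.53 and 2.41 in OSKA cells. For both genes each OSKA array was below each OSK array, whether 4OHT was given or not.

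Without 4OHT, Lamb3 was 1.91-fold lower in OSKA cells (−0.93, software error 0.21), and it was 1.65-fold lower with 4OHT (−0.72). Lama5 was 1.63-fold lower without 4OHT (−0.71) and 1.49-fold lower with 4OHT (−0.57). With 4OHT in OSKA cells Lamb3 differed by −0.03 and Lama5 by −0.12, within the error. Lama3, which encodes the α3 chain of laminin-332, spanned less on its brightest probe, from −2.26 to −2.02. Its other, dimmer probe ran from −4.28 to −3.50. The AKT-MER differences of that dimmer probe were −0.31 without and −0.42 with 4OHT (software errors 0.38 and 0.34), beside −0.20 and −0.16 on the brightest.

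Itga3 encodes the α3 chain of integrin α3β1, a receptor for laminin-332 and laminin-511. Its probe (chr11:94906334-94906393, NCBI37) begins with aagagcaatgaactagaaagcaggtcgccg and shares no stretch of 15 bases with a probe of another name. Itga3 lay at −1.57 in OSK cells with vehicle, −2.29 in OSK cells with 4OHT, −2.50 in AKT-nonactivated cells and −3.23 in AKT-activated cells. It was 1.64-fold lower with 4OHT in OSK cells (−0.72, software error 0.22) and 1.65-fold lower with 4OHT in OSKA cells (−0.73, error 0.25), so that lower values with 4OHT were measured with and without AKT-MER. The AKT-MER effects were −0.93 without and −0.94 with 4OHT. Normexp with quantile normalization brought the 4OHT differences to −0.45 in OSK and −0.34 in OSKA cells.

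Itgb4 encodes the β4 chain of integrin α6β4, the laminin receptor of hemidesmosomes. It lay at 4.11, 3.59, 3.34 and 3.76 on the 4 arrays, highest in OSK cells with vehicle. The difference with 4OHT was −0.53 in OSK cells and 0.42 in OSKA cells, each with a software error of 0.20. In the absence of 4OHT it was 1.71-fold lower in OSKA cells (−0.77).

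The summed intensity of 7 simple epithelium markers, in multiples of the 75th percentile, was 14.5, 12.0, 9.35 and 6.68 on the 4 arrays, but the markers did not go 1 way. Cldn4 was not well above background in OSK cells with vehicle, and the other 6 markers were on every array. Cdh1, the adhesion molecule of epithelial cells, lay at −0.81, −1.40, −1.86 and −1.99, and Krt19 at 3.44, 3.17, 2.84 and 1.88. The keratins Krt18 and Krt8 lay at −1.08, −1.01, −0.81 and 0.05 and at 1.22, 0.83, −0.01 and 0.55. With 4OHT in OSKA cells 3 of the 7 were higher and 4 lower, from −1.27 for Esrp1 to 0.86 for Krt18, with a median of −0.14. Of 7 keratinocyte markers 3 were well above background on each of the first 3 arrays and 5 in AKT-activated cells, with summed intensities from 8.97 to 9.42. Krt1 and Dsg3 were above it on none. The part of epithelial cells in the values of the Lamb3, Lama5, Itga3 and Itgb4 probes was not tested.

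Promoters are shown for Itga3, Lama5 and Lamb3, 3 genes picked after their values were seen from those that were highest in OSK cells with vehicle and lowest in AKT-activated cells. Itga10, Itgam, Lama2, Lama4 and Lamb2 had the same highest and lowest arrays. The sequences are RefSeq sequences (GRCm38.p6) from 250 bases before to 50 bases after a transcription start, read along the gene. Itga3 lies at chr11:95076665-95076964 on the minus strand, Lama5 at chr2:180225810-180226109 on the minus strand and Lamb3 at chr1:193301993-193302292 on the plus strand. Capitals mark matches, on either strand, to the E2 box CAGGTG bound by SNAIL and ZEB factors, the GC box GGGCGG, and the TEAD motif GGAATG.
Itga3 promoter: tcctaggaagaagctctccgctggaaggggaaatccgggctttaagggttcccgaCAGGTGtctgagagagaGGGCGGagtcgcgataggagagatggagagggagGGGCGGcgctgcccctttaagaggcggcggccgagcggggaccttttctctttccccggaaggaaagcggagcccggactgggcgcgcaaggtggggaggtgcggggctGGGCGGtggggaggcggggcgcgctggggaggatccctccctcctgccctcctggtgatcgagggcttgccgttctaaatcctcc
Lama5 promoter: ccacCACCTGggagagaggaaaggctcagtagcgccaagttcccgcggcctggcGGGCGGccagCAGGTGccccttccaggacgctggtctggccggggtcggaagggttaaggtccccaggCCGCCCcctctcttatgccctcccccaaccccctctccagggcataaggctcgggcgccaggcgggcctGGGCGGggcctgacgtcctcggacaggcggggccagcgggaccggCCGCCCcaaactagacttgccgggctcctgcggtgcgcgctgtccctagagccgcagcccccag
Lamb3 promoter: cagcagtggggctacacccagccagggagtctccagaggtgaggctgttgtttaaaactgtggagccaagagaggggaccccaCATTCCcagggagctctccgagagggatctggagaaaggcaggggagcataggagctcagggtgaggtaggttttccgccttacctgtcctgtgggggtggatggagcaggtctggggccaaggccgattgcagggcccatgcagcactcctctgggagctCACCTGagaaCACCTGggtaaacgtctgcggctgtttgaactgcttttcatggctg
All 3 windows hold CAGGTG, but the promoters listed for Itga10, Itgam, Lama2 and Lamb2, with the same highest and lowest arrays, do not. RefSeq gave 27 promoters for 24 of the 38 genes, and 8 of the 27 held it (29.6%), beside 20.2% of 32851 promoters. The other promoter listed for Itga3 and that for Lamb3 do not hold it. GGGCGG was in 12 of 27 (44.4%, beside 35.7%), GGAATG in 3 (11.1%, beside 14.7%) and the AP-1 motif TGACTCA in 2 (7.41%, beside 5.2%). The TATA box letters TATAAA were in 0 of 27, beside 13.6% of all promoters. The member promoters had a median GC content of 58.7%, beside 52.7%. A match is a description of letters and not of a bound site.

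Lama2, Lama4 and Lamb2 spanned less. Lama2, the α2 chain of muscle and nerve basement membranes, lay at 3.19, 3.12, 2.94 and 2.73, and Lama4, the α4 chain of vessel walls, between 3.83 and 4.09. Lamb2, the β2 chain, lay at 3.96, 3.78, 3.78 and 3.52. All 3 were lowest in AKT-activated cells, with 4OHT differences in OSKA cells of −0.21, −0.11 and −0.27, beside −0.07, −0.06 and −0.18 in OSK cells. Lamc3, the γ3 chain, was well above background on no array.

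Among the collagen-binding integrin chains, Itga11 encodes the α11 chain, a collagen I receptor of fibroblasts. It lay at 4.25 in OSK cells with vehicle, 4.57 in OSK cells with 4OHT, 5.02 in AKT-nonactivated cells and 4.32 in AKT-activated cells. With 4OHT it was 1.63-fold lower in OSKA cells (−0.70, software error 0.20) and differed by 0.33 in OSK cells. The level in AKT-activated cells lay between those of the OSK arrays, and the AKT-nonactivated array was the highest.

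Itga1, the α1 chain that binds collagen IV, was chosen after its values were seen. Its brightest probe lay at −1.49, −0.73, −0.88 and −1.41 on the 4 arrays, and the other probe at −2.57, −1.45, −1.63 and −1.70. On both probes the array of OSK cells with vehicle was the lowest. The difference with 4OHT in OSK cells was 0.77 (1.70-fold) on the brightest probe and 1.12 (2.17-fold) on the other. In OSKA cells it was −0.53 and −0.07, so the lower value of the brightest probe was not seen on its neighbour. Itga10, the α10 chain of cartilage, lay at 1.06, 0.82, 0.75 and 0.39, with −0.24 for 4OHT in OSK cells and −0.36 in OSKA cells. Its other probe overlaps the first and gave −0.29 and −0.38. Itga2, the α2 chain of platelets and epithelia, was well above background on no array.

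Itgb1 encodes the β1 chain, which pairs with more α chains than any other. It lay at 3.07, 3.28, 3.17 and 2.91 on the 4 arrays. The differences with 4OHT were 0.20 in OSK and −0.26 in OSKA cells, against a software error of 0.20, and its other probe gave 0.42 and −0.16. Itgav encodes the αv chain of the vitronectin receptors and lay at 0.45, 1.02, 0.85 and 0.68. With 4OHT it differed by 0.57 in OSK cells and −0.17 in OSKA cells, with 0.57 and −0.24 on the other probe. On both probes of both genes the 4OHT difference was thus positive in OSK and negative in OSKA cells, though under spike-in scaling that of the brightest Itgb1 probe in OSK cells was −0.11.

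The other RGD-binding chains gave small values. Itgb5, a partner of αv, lay between 5.31 and 5.77 and differed by −0.35 with 4OHT in OSKA cells. Itga5, the fibronectin receptor chain, and Itga8 differed by 0.09 and 0.05 there, within the software error. Itgb3, the β3 chain, differed by 0.16 on its brightest probe and −0.26 on the other.

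Among the laminin-binding and related chains, Itga7, the α7 chain of muscle, was highest in AKT-activated cells, at 1.69, beside 1.33 in AKT-nonactivated cells and 1.13 in OSK cells with 4OHT. Its 4OHT difference was 0.36 in OSKA and 0.13 in OSK cells. Itga4, the α4 chain that binds VCAM1 and fibronectin, lay at 1.05, 1.36, 1.29 and 1.76, with differences of 0.47 and 0.31. Both AKT-MER differences without 4OHT (0.33 for Itga7 and 0.24 for Itga4) turned below 0 under spike-in scaling (−0.14 and −0.22). Itga9, the α9 chain that binds tenascin, lay at −0.43, −0.01, 0.26 and −0.07, with −0.32 in OSKA and 0.41 in OSK cells. Itga6, the α6 laminin receptor chain, gave −0.35 with 4OHT in OSKA cells on its brightest probe and 0.16 on the other. The brightest Itga6 probe shared stretches of at least 15 bases with 22 probes of other names, the longest of 17 bases. The other shared such stretches with 5, the longest of 25 bases. How much of either signal comes from other transcripts was not tested.

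**Figure D3:**
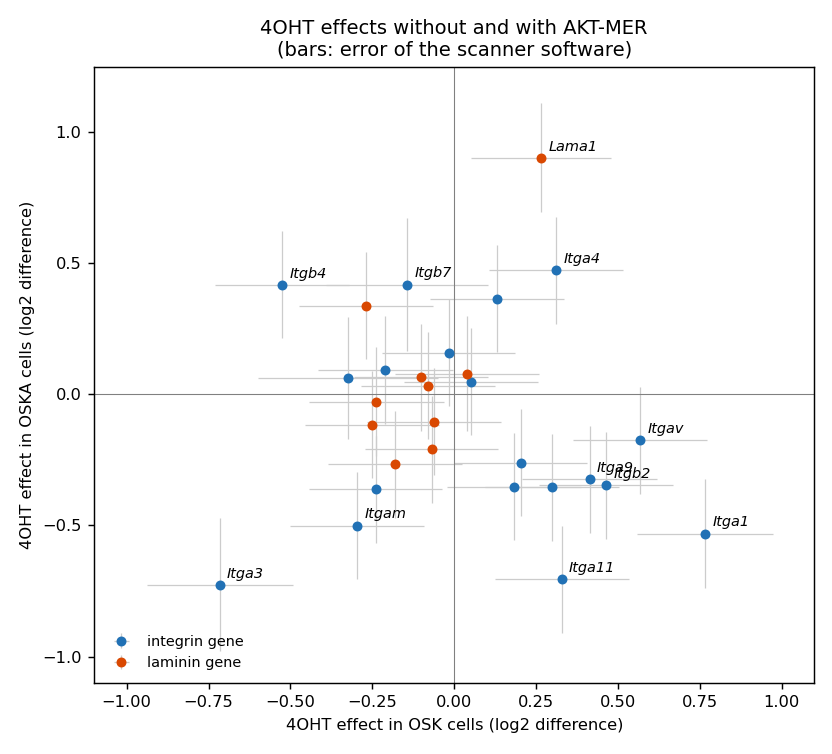
Log2 difference with 4OHT in OSKA cells (vertical axis) against that in OSK cells (horizontal axis) for the 29 genes measured on all 4 arrays, with grey bars for the software error and names where either difference is 0.4 or more. Itga3 is low on both axes at −0.72 and −0.73, Lama1 stands highest at 0.90, and Itga1 lies at 0.77 in OSK and −0.53 in OSKA cells.

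Leukocyte integrins are read against the white blood cells that a fibroblast culture can hold. Itgb2, the β2 chain found on leukocytes, lay at 0.42, 0.88, 1.04 and 0.69 on the 4 arrays, lowest in OSK cells with vehicle. It differed by 0.46 with 4OHT in OSK cells and by −0.35 in OSKA cells. Of 11 leukocyte markers 10 were well above background on every array. All 10 were lowest in OSK cells with vehicle, as Itgb2 was, and among them were Csf1r, the macrophage growth factor receptor, at 5.91, 6.51, 6.50 and 6.33, and Ptprc at 0.16, 0.66, 0.56 and 0.47. Their median differences were 0.62, −0.17, 0.57 and −0.20 in the 4 comparisons, beside 0.46, −0.35, 0.62 and −0.19 for Itgb2. The summed intensity of the list was 171, 264, 254 and 225 times the 75th percentile. Its part in the Itgb2 values was not tested.

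Itgam encodes αM (CD11b), the partner of the β2 chain on macrophages, and its 3 probes did not give 1 answer. The brightest, at chr7:135261755-135261814, lay at 4.59, 4.30, 4.41 and 3.91. The probe at chr7:135260275-135260334 lay at −0.88, −0.22, −0.16 and −0.55, and that at chr7:135212140-135212199 at −3.61, −3.26, −3.10 and −3.46 (all NCBI37). OSK cells with vehicle were the highest on the brightest probe and the lowest on both others, where the order of the arrays was that of Itgb2. The first 30 bases of each are shown because their letters differ in kind. On the brightest probe, capitals mark bases within a stretch of at least 15 that a probe of another name shares on either strand. Shared bases were not marked on the other probes.
Itgam brightest probe: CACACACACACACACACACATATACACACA
Itgam probe at 135260275: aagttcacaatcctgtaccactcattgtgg
Itgam probe at 135212140: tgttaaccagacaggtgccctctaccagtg
The brightest probe opens with a run of CA repeats and shared such stretches with 134 probes of other names, the longest of 22 bases. The probe at 135260275 shared none, and that at 135212140 shared a stretch of 15 bases with 1 other probe. The difference with 4OHT in OSK cells was −0.30 on the brightest probe and 0.66 and 0.36 on the others. In OSKA cells it was −0.50, −0.39 and −0.36. How much of the signal of the brightest probe comes from other transcripts was not tested.

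Itgal, the αL chain of lymphocytes, had 3 dim probes. With 4OHT in OSKA cells they gave 0.06, 0.28 and 0.38, each with a software error of 0.23 to 0.29. These values run from the brightest probe to the dimmest by mean level over the 4 arrays. In the same order, the AKT-MER difference without 4OHT was 0.32, −1.26 and 0.48, so the direction depended on the probe. Itgb7, the β7 chain of gut-homing lymphocytes, had a 4OHT difference of 0.42 in OSKA and −0.14 in OSK cells. Of the other 4 leukocyte chains, Itgax (CD11c) was well above background in AKT-nonactivated cells only, at least 1.40-fold above OSK cells with vehicle. Itgad, Itgae and Itgb2l were well above background on none.

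**Figure D4:**
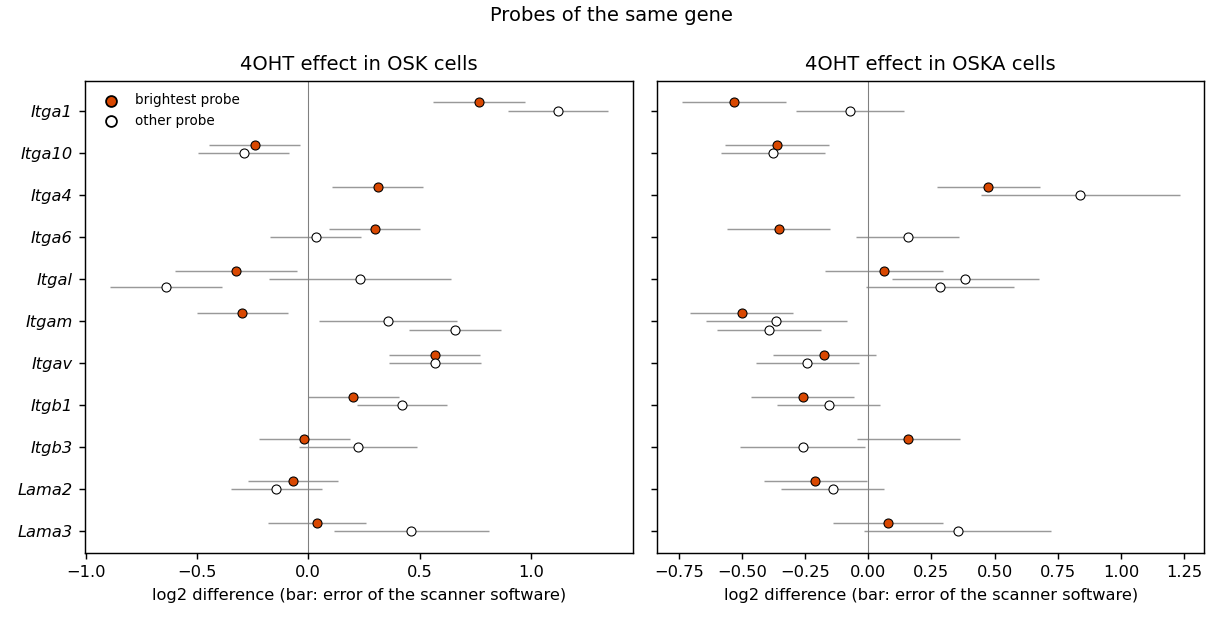
Log2 difference with 4OHT (horizontal axis) in OSK cells (left) and OSKA cells (right) for genes with more than 1 measured probe, with the brightest probe in orange, the others in white and bars for the software error. In OSK cells the brightest Itgam probe lies at −0.30 and its other probes at 0.36 and 0.66, while in OSKA cells all 3 lie below 0.

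The dim members add little. Itgb6, the β6 chain of epithelia, was well above background on no array. Itgb8 was measured in OSKA cells only, with 0.39 (software error 0.42) for 4OHT. Itga2b, the αIIb chain of platelets, differed by −0.04 with 4OHT in OSKA cells. The megakaryocyte markers Gp9, Gp1ba and Gp6 were well above background on none.

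Partners of integrins and laminins were read from lists of known partners in the 4OHT effect in OSKA cells. None of these lists was tested, and 54.8% of all genes were lower in that comparison. Of the 16 linkers of focal adhesions to actin, 14 were lower with 4OHT, with a median of −0.21 beside −0.03 for all genes, and 0 were 2-fold lower. Their values ran from −0.69 for Vcl, which encodes vinculin, to 0.06 for Vasp. In OSK cells 9 of the 16 were lower, with a median of −0.04, near the 50.6% of all genes lower there. Of the smooth muscle markers, genes of the contractile actin apparatus, 3 of 4 measured were lower in OSKA cells (median −0.95), with Tagln at −1.24 and Acta2 at −1.08, and 1 of 4 in OSK cells (median 0.35). Their summed intensity was 82.2, 105, 129 and 62.0 times the 75th percentile on the 4 arrays, and Myh11 was well above background on none. Acta1, a skeletal muscle actin gene, fell by 1.17 with 4OHT in OSKA cells. The part of these markers' cells in the values of the actin linkers was not tested. Of the 7 genes of the ILK, PINCH and parvin complex, 6 were lower (median −0.25), from −0.66 for Lims2, which encodes PINCH2, to 0.04 for Lims1.

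Of 7 talin and kindlin activators measured 5 were lower (median −0.17), from −0.58 for Tln2 to 0.29 for Rasgrp2. Of 13 genes of focal adhesion kinase and SRC signalling 10 were lower (median −0.07), from −0.62 for Nedd9 to 0.23 for Ptk2, the kinase gene itself. All 7 integrin inactivators lay below 0 (median −0.06), from −0.58 for Ndrg1 to −0.00 for Itgb1bp1. Tetraspanins and lateral partners were lower in 3 of 9 (median 0.01), from −0.40 for Plaur, the urokinase receptor gene, to 0.38 for Cd82.

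On the matrix side, 11 of 19 measured integrin ligands were lower (median −0.21). Ccn2, the connective tissue growth factor gene, was the only ligand past 2-fold and fell by 1.19, with levels of 6.28, 6.23, 5.74 and 4.56 on the 4 arrays. Tgfb2 gave the highest value, 0.42. Of 13 basement membrane partners of laminin 7 were lower (median −0.09), from −0.63 for Smoc2 to 0.92 for Ntn1, which encodes netrin 1. Laminin receptors other than integrins were lower in 5 of 9 (median −0.01), from −0.28 for Sdc2 to 0.96 for Sgca, the α-sarcoglycan of the dystroglycan complex. Of 5 hemidesmosome genes 3 were measured, of which Krt14, a basal keratin, rose by 1.33 and Plec, which encodes plectin, gave −0.32.

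**Figure D5:**
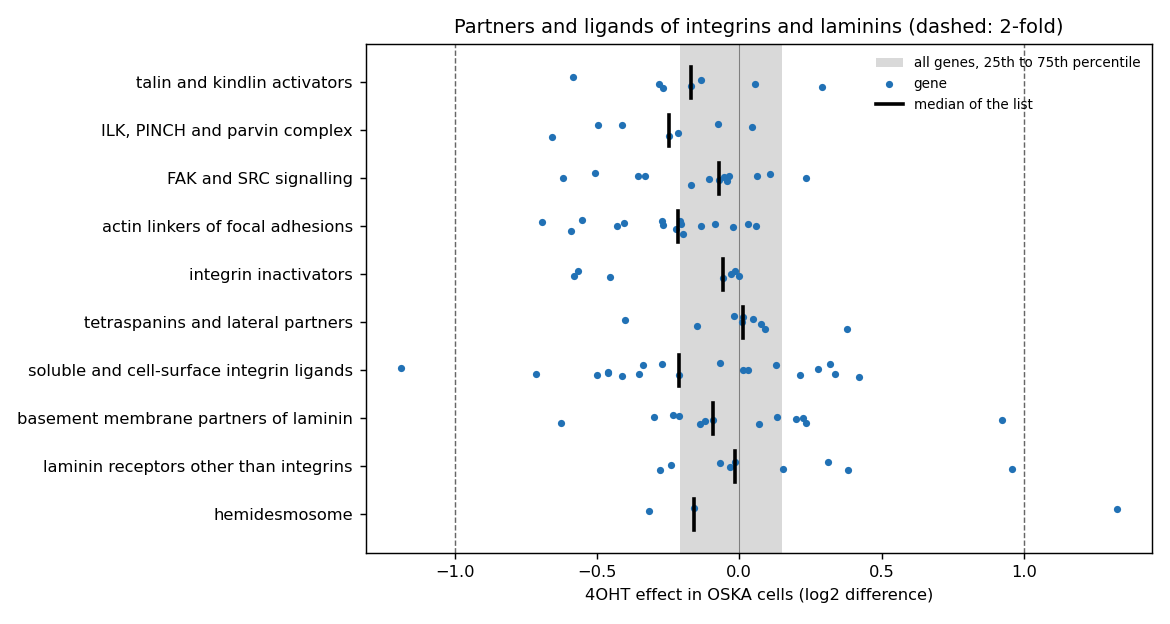
Log2 difference with 4OHT in OSKA cells (horizontal axis) for the genes of 10 lists of integrin and laminin partners (vertical axis), with black bars at the medians and a grey band from the 25th to the 75th percentile of all genes. The points of the actin linkers lie to the left, 14 of 16 below 0, and Ccn2 at −1.19 and Krt14 at 1.33 are the genes past the dashed 2-fold lines.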

How the data were processed

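Cy3-labelled cRNA from 100 ng of total RNA was hybridised to 1 array per group. The deposited scanner files hold an intensity per spot that the authors obtained with Agilent Feature Extraction 10.7.3.1, corrected for background and spatial trend and not normalized between arrays. Rounded values of that intensity are in the series matrix. The log2 intensity was reduced by the array's 75th percentile, control spots and spots marked as uneven or as outliers were left out, and spots of a probe were averaged. A difference was taken where a probe was well above background on both arrays, and otherwise a bound. A gene was represented by its brightest probe. Names came from RefSeq for 27509 of 55681 probes and otherwise from the files, and probe coordinates from the files. The place of a probe within an exon was not analysed here. Levels are given for genes at least 1.5-fold different with 4OHT in OSKA cells, for Itgb1, Itgav, Lamb1 and Lamc1, and for further genes chosen after their values were seen. The values of some genes are not reported here. Genes, lists and comparisons were chosen with earlier results of these data known. Python 3.11.15, pandas 2.3.3 and limma 3.58.1 in R 4.3.3 were used, and the scripts were tested on simulated data. The alternatives were quantile normalization, normexp (offset 50), spike-in scaling, other filters on dim probes, the series matrix, the mean of all probes and a 1.5-fold threshold, and, added after seeing the data, another Itgam probe and the count of laminins highest in OSK cells with vehicle.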

Additional observations from a re-analysis of the deposited data

Results flagged for a closer look

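For 6 members described here, the 4OHT differences in OSK and OSKA cells had opposite signs and each exceeded the software error. Opposite signs alone were seen for 16 of 29. The share of all genes with opposite signs was not counted, so neither count can be set against a background. The difference in OSKA cells minus that in OSK cells was −1.30 for Itga1, −1.03 for Itga11, −0.65 for Itga6, −0.74 for Itga9, −0.81 for Itgb2 and 0.94 for Itgb4. None of these differences was tested, since each group has 1 array. Under spike-in scaling the 4OHT difference in OSK cells was 0.01 for Itga11, −0.02 for Itga6, 0.096 for Itga9 and 0.15 for Itgb2, within the software error, so that Itga1 (0.45) and Itgb4 (−0.84) alone of the 6 kept opposite signs beyond it. The other probe of Itga1 gave −0.07 with 4OHT in OSKA cells in place of −0.53, and the other probe of Itga6 gave 0.16 in place of −0.35. The leukocyte marker list had medians of 0.62 and −0.17 in the same comparisons, which stand beside the Itgb2 values.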

How the results depend on the processing

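No paired analysis was possible because each group has 1 array and the labels carry no replicate numbers that pair arrays. The counts of genes at least 2-fold different stayed at 0 under quantile normalization, normexp with quantile normalization, the filter on all 4 arrays, the series matrix, the mean of all probes and the other Itgam probe. Spike-in scaling gave 1 lower gene for 4OHT in OSK cells (beside 0.97% of all genes). It gave 6 for AKT-MER without 4OHT (beside 4.97%) and 1 for AKT-MER with 4OHT (beside 1.68%). The medians of the members were then −0.38, −0.44 and −0.31, and 3 genes were highest in AKT-activated cells in place of 8. Spike-in scaling also turned the AKT-MER difference without 4OHT of Itga4 to −0.22, Itga6 to −0.24, Itga7 to −0.14, Itgal to −0.15 and Lama1 to −0.15. With no filter on dim probes, 1 gene was 2-fold higher with 4OHT in OSK cells, and 1 higher and 1 lower for AKT-MER without 4OHT, beside 3.65%, 4.22% and 4.37% of all genes at that setting. The mean of all probes moved the median for 4OHT in OSK cells to 0.050 and turned Itgam to 0.24 there, and Itgal to −0.15 for AKT-MER without 4OHT. The other Itgam probe gave 0.66 for 4OHT in OSK cells. The 1.5-fold threshold gave 1 higher and 1 lower gene for 4OHT in OSK cells, 1 and 2 in OSKA cells, 4 and 6 for AKT-MER without 4OHT, and 2 and 3 with 4OHT. Among single-gene differences, spike-in scaling moved 54 by more than the software error besides the 5 it turned, and normexp with quantile normalization moved 8. A difference counted as turned only if its sign changed and its main value exceeded the software error. Its new value also had to exceed 0.09, the spread of a difference between repeated spots. Sign changes short of this, such as that of Itgb1 with 4OHT in OSK cells, were not among the 5. The causes of these shifts were not tested. With 1 array per group, no value here carries the spread between cultures, and for the 6 genes well above background on no array no difference was taken.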
